A study of Mus musculus with 15 samples.

Results

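The liver makes triglyceride from glycerol-3-phosphate in 4 enzymatic steps. In the liver transcriptomes of 15 mouse libraries, 8 genes were read: enzymes of this route, Mogat1 of another route and Pnpla3, a lipid droplet protein. The genes were taken by symbol from the deposited table, where 8 of 16809 genes are members: Gpam, Agpat2, Lpin1, Lpin2, Dgat1, Dgat2, Mogat1 and Pnpla3. Of these, 7 passed a filter on low counts that left 12658 genes, and Mogat1 did not pass. All mice were labelled wild type. Of 5 groups of 3 libraries, 3 received a flavonoid by oral gavage during 6 weeks of a high-fat diet: quercetin (200 mg per kg and day), myricetin (75 mg per kg and day) or kaempferol (100 mg per kg and day). The model group ate for 6 weeks a high-fat diet made of standard feed (78.8%), lard (10%), egg yolk powder (10%), cholesterol (1%) and sodium cholate (0.2%), and the control group ate standard feed for 6 weeks. The labels do not give the composition of the diet of the flavonoid groups, the strain, sex or age of the mice, the hour of collection or the feeding state. Nor do they state whether each library is a different mouse. The p-values set differences between groups against the spread of libraries within groups, and that spread may be technical. Doses differed between the flavonoids, so each is set against the model and the control and not against another flavonoid.

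In the glycerol phosphate route, a glycerol-3-phosphate acyltransferase adds the first fatty acid, an acylglycerophosphate acyltransferase adds the next and gives phosphatidic acid, a lipin removes the phosphate to give diacylglycerol, and a diacylglycerol acyltransferase adds the last fatty acid. Monoacylglycerol acyltransferases reach diacylglycerol by another way, from monoacylglycerol. Phosphatidic acid and diacylglycerol also feed phospholipid synthesis. In mouse liver, transcription of several of these genes is known to follow insulin, feeding and the lipogenic factor SREBP-1c, and lipin 1 is also known as a nuclear coactivator that rises in fasting.

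Of the 7 tested members, Lpin1, which makes diacylglycerol, moved most often: it fell in the model and with kaempferol against the control, and it rose with quercetin against the model. Gpam, the entry acyltransferase, fell with kaempferol against the control, and Agpat2 fell with quercetin against the model. Pnpla3, a lipid droplet protein at low level, fell with myricetin and with kaempferol against the control. Lpin2, Dgat1 and Dgat2 passed in none of the 7 pairwise comparisons by edgeR on all 15 libraries with TMM scaling, and each passed at least 1 under another setting, given with its values.

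Sequence upstream of the genes that differed among the 5 groups is shown first, because 3 members passed that test: Gpam, Lpin1 and Pnpla3. RefSeq promoter windows of GRCm38.p6 (250 bases before to 50 bases after each annotated start) were found for 6 of the 8 members, in 9 windows, and not for Dgat1 and Dgat2. Windows were searched on both strands for CACGTG (E-box), TCACNCCAC (a sterol response element), AGGTCA (a nuclear receptor motif), TTATGTAA (D-box) and TGACGTCA (cyclic AMP response element). Capitals mark a match. The windows lie at chr12:16610917-16611216 on the minus strand for an inner start of Lpin1, inside the GENCODE span of the gene, chr15:84167566-84167865 on the plus strand for Pnpla3, and, on the minus strand, chr19:55127189-55127488 and chr19:55099428-55099727 for the outer and inner start of Gpam.
Lpin1, inner start: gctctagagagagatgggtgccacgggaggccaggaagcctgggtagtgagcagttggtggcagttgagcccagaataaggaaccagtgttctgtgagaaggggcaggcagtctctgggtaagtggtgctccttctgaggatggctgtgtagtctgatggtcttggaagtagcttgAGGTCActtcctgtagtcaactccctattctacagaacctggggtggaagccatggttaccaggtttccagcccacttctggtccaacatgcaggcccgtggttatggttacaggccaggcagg
Pnpla3: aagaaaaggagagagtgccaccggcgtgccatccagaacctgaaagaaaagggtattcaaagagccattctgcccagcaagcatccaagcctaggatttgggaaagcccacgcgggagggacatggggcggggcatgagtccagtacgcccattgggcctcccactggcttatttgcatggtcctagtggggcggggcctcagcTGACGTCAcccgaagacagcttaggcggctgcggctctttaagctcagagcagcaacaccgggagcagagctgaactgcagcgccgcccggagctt
Gpam, outer start: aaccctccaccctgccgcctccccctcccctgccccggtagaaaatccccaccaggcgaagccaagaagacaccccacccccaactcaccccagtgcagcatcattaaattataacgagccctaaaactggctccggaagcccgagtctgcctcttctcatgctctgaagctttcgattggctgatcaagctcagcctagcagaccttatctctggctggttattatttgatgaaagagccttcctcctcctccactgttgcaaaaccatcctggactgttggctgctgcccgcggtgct
Gpam, inner start: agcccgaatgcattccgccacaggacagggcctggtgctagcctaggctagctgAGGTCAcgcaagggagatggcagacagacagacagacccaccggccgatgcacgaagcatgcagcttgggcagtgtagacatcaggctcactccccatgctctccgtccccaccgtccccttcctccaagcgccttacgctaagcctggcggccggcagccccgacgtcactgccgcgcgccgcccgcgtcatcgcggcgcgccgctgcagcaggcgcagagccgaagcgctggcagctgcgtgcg
AGGTCA began 74 bases before the inner start of Lpin1 and 196 bases before the inner start of Gpam, and it occurs in 16.3% of all 32851 windows. TGACGTCA began 46 bases before the start of Pnpla3 and occurs in 1.79% of all windows. CACGTG began 9 bases before one start of Lpin2, in the window chr17:71183282-71183581 on the plus strand, and occurs in 7.15% of all windows. The sterol response element (1.24% of all windows) and the D-box (0.938%) had no match in the 9 member windows, which says only that these letters are not in those windows.

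Levels between genes were compared per length, in the deposited TPM, a transcript level scaled to gene length and library total. Over 15 libraries Dgat2 averaged 300.2 TPM, Agpat2 243.8, Lpin2 41.1, Gpam 33.7, Lpin1 13.99, Dgat1 13.7, Pnpla3 0.515 and Mogat1 0.242 TPM. Deposited FPKM gave the same order. Dgat2 was above Agpat2 in 12 libraries, while Lpin1 was above Dgat1 in 5 and Pnpla3 above Mogat1 in 8, so those neighbours in the order did not separate. Dgat2 and Agpat2 together thus held the highest levels, and the terminal acyltransferases were unequal: the ratio of Dgat2 to Dgat1 TPM was 17.3 to 26.5 across libraries, with a median of 22.1. At the entry step the member Gpam, a mitochondrial acyltransferase, averaged 33.7 ± 8.13 TPM and its microsomal relative Gpat4 54.4 ± 9.99 TPM (SD, n = 15), with Gpat3 at 2.27 ± 0.607 TPM. At the phosphatidic acid step Agpat3 averaged 61.9 ± 5.73 TPM and Agpat1 7.12 ± 2.17 TPM.

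**Figure D1:**
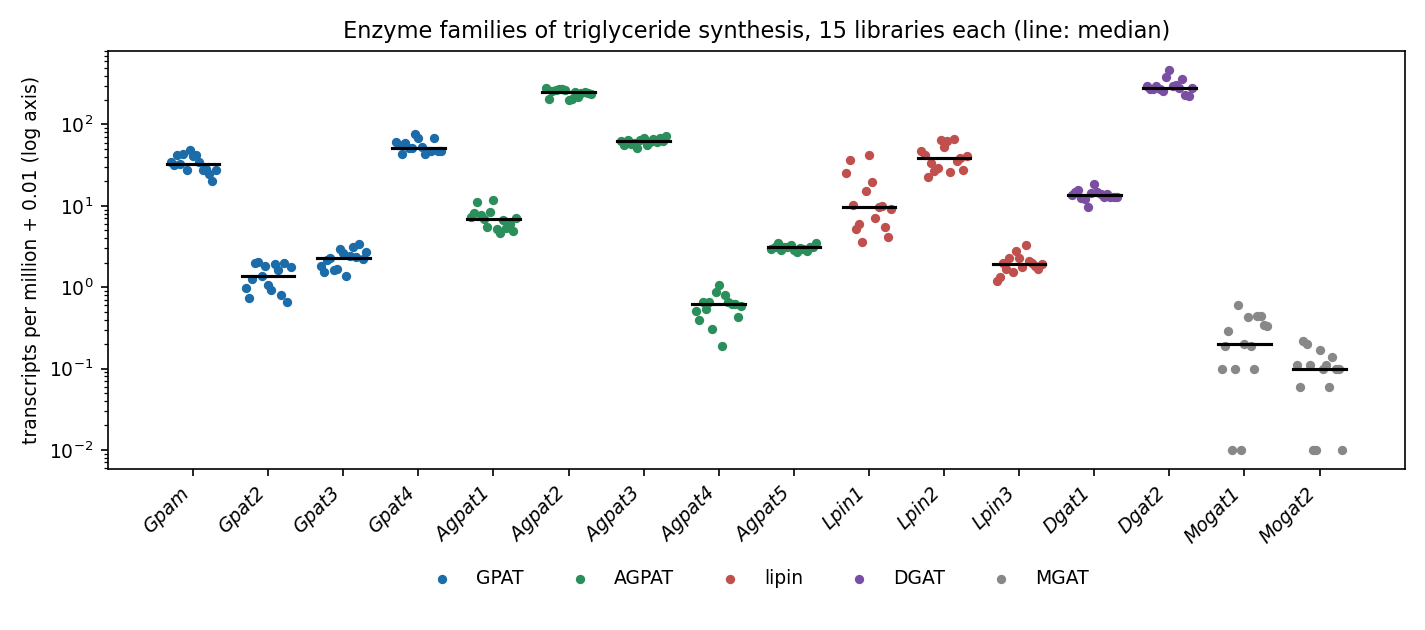
Deposited TPM plus 0.01 (vertical log axis) of the enzyme families of triglyceride synthesis. Each of 15 libraries has 1 point, and a line marks the median. Dgat2 and Agpat2 stand highest, and Mogat1 and Mogat2 lie below 1 TPM.

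Libraries held 15.9 to 17.6 M expected counts each and 14615 to 14929 genes above 0. Below, levels are CPM, the usual depth-scaled count on the TMM-scaled library size. A change is a log2 fold change ± SE, tested by quasi-likelihood in edgeR, and adjusted p refers to Benjamini-Hochberg adjustment over 12658 genes. Liver identity was seen in the hepatocyte list, whose 10 genes summed to 105700 to 116100 CPM in the quercetin libraries, 84440 to 101900 with myricetin, 81130 to 108000 with kaempferol and 88100 to 107300 in the model, against 114600 to 128700 CPM in the control. Alb alone averaged 78400 CPM in the control and 48320 CPM with myricetin, so 1 gene weighs heavily in these sums. By edgeR 1, 1, 2 and 2 of the 10 were lower in the model and with quercetin, myricetin and kaempferol against the control. Against the model 0 passed with each flavonoid, with 2, 1 and 2 at an unadjusted p under 0.05 and 0 by DESeq2. In bulk tissue, fewer cells of a type and less RNA per cell cannot be told apart. Of the adipocyte markers, Adipoq and Plin1 were at 0 in 13 and 14 of the 15 libraries, while Car3 and Cfd were higher in the model than in the control, with values given among the markers of other cells.

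**Figure D2:**
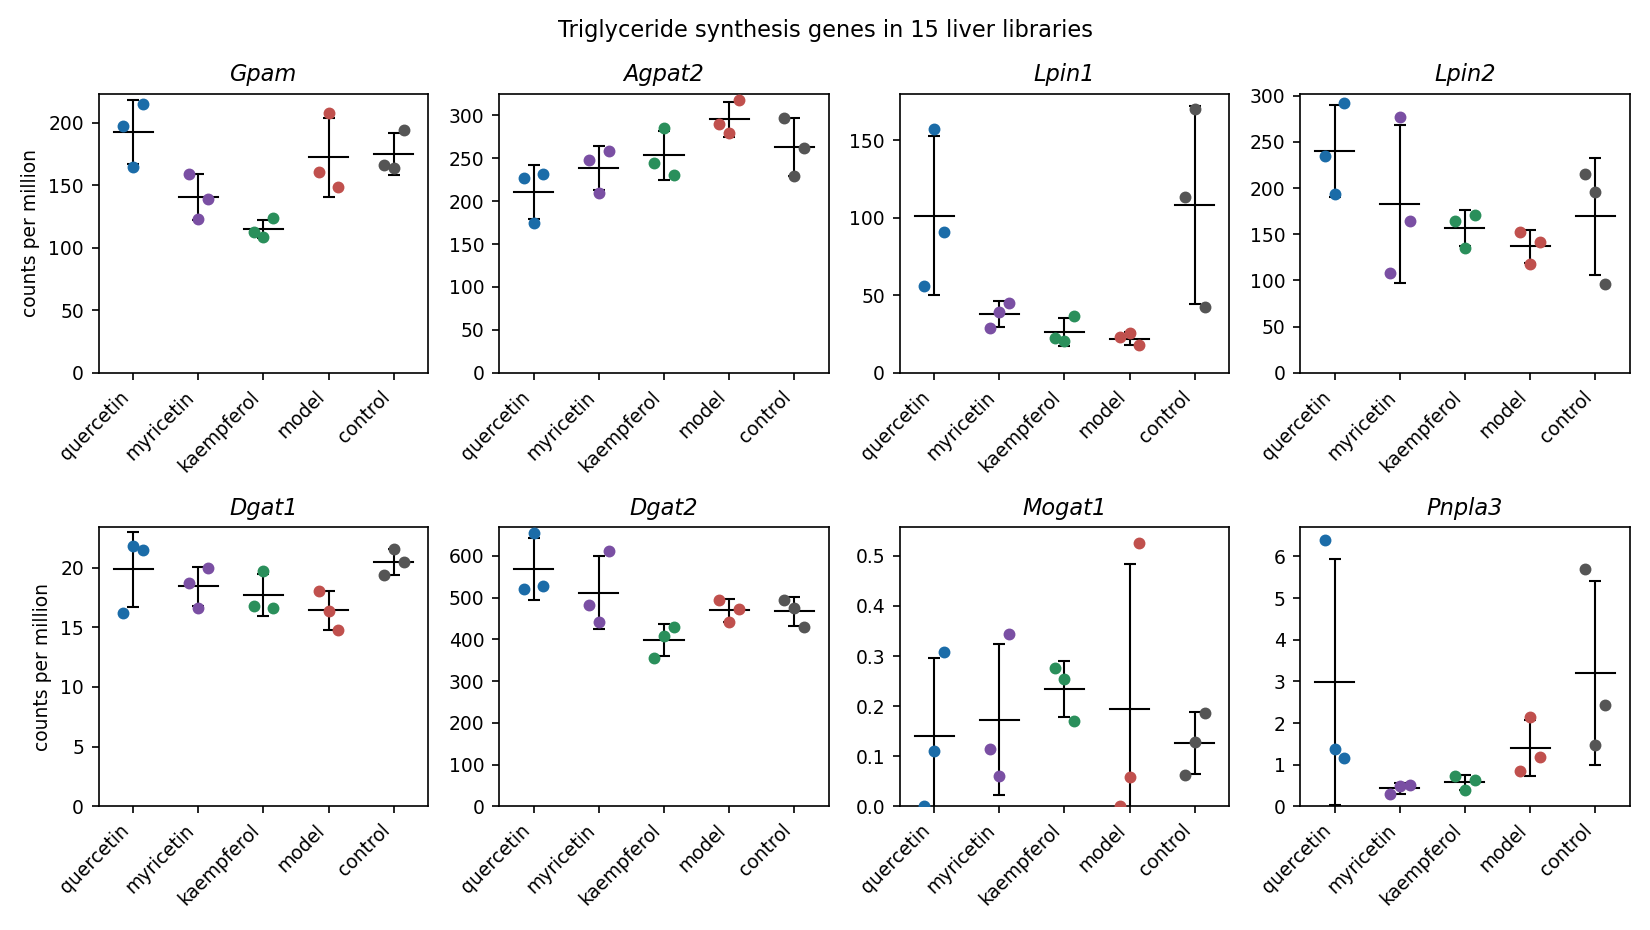
CPM (vertical axes, from 0) of the 8 members in each library, with the group mean and SD (n = 3), for quercetin, myricetin, kaempferol, model and control. Lpin1 is low in the model, at 17.7 to 25.6 CPM, and Gpam is low with kaempferol, at 109 to 123 CPM.

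Gpam lies on chromosome 19 (55067635 to 55127319, minus strand, GRCm38.p6) and its exons overlap no other gene in GENCODE. Kaempferol libraries had 113, 109 and 123 CPM, against 160, 208 and 149 CPM in the model and 166, 164 and 194 CPM in the control. Every kaempferol library was below every model and control library. Against the control Gpam fell by 0.60 ± 0.14 with kaempferol (edgeR adjusted p 0.00992, means 115.0 ± 7.50 and 174.8 ± 16.7 CPM, SD, n = 3 each). Without control library 3 the edgeR adjusted p was 0.0514. Against the model the log2 fold change was -0.58 ± 0.14, with an edgeR adjusted p of 0.111 and an unadjusted p of 0.000612. DESeq2 gave an adjusted p of 0.0120 for that contrast, and the authors' deposited table lists a log2 fold change of -0.59 with a q value of 0.00368. Quercetin libraries had 197, 165 and 215 CPM and overlapped the model and the control, and myricetin libraries had 159, 123 and 139 CPM, all below the control range. Model and control overlapped, with a log2 fold change of -0.02 ± 0.14 (95% interval -0.33 to 0.29). Across the 5 groups Gpam differed (edgeR adjusted p 0.00954), and it passed in each of 15 fits that left out 1 library.

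Agpat2, the acyltransferase mutated in a congenital lipodystrophy in humans, lies on chromosome 2 (26593057 to 26604417, minus strand), and its exons overlap those of Egfl7 on the opposite strand. Strand use in counting was not stated, so reads of the pair may be mixed; Egfl7 had 9.54 to 15.4 CPM in all libraries. Quercetin libraries had 227, 175 and 231 CPM of Agpat2, against 289, 279 and 318 CPM in the model. The groups did not overlap, and Agpat2 fell by 0.49 ± 0.13 (edgeR adjusted p 0.0339). Scaled by library totals only, the log2 fold change was -0.34 with an adjusted p of 0.0561. The adjusted p was 0.0845, 0.0786, 0.101 and 0.138 without model libraries 1, 2 and 5 and without quercetin library 5. For this contrast the authors deposited a log2 fold change of -0.49 with a DESeq2 q value of 0.0113. Against the control, with 297, 230 and 262 CPM, the quercetin log2 fold change was -0.32 ± 0.13 (edgeR adjusted p 0.129). Myricetin libraries had 248, 210 and 259 CPM, below every model library, with a log2 fold change of -0.31 ± 0.13 and an edgeR adjusted p of 0.370. Kaempferol libraries had 244, 285 and 231 CPM and overlapped both the model and the control.

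Lpin1 encodes lipin 1, and lies on chromosome 12 (16535669 to 16653903). GENCODE places it on the minus strand and the deposited table on the plus strand, as for 11.5% of 16218 matched genes. Model libraries had 23.0, 25.6 and 17.7 CPM, against 113, 170.1 and 42.4 CPM in the control libraries. The groups did not overlap, although control libraries ranged over 4.01 times among themselves. Lpin1 fell by 2.30 ± 0.51 in the model (edgeR adjusted p 0.0308, 95% interval -3.43 to -1.16). The adjusted p was 0.118, 0.106, 0.0703 and 0.137 without control library 2 and without model libraries 1, 2 and 5. With only the model and control libraries in the fit, the adjusted p was 0.0925. For this contrast the authors deposited a log2 fold change of -2.29 with a DESeq2 q value of 0.00233.

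Quercetin libraries had 55.9, 157 and 91.1 CPM of Lpin1, all above every model library and within the control range. Lpin1 rose by 2.20 ± 0.51 against the model (edgeR adjusted p 0.0248), and the adjusted p was 0.0858, 0.0814, 0.0874 and 0.0830 without model libraries 1, 2 and 5 and without quercetin library 5. For quercetin against the model the authors deposited a log2 fold change of 2.19 with a DESeq2 q value of 6.59e-05. Against the control the quercetin log2 fold change of Lpin1 was -0.10 ± 0.48, with a 95% interval of -1.16 to 0.96. Myricetin libraries had 28.9, 39.6 and 45.1 CPM, each above the model, with a log2 fold change of 0.78 ± 0.50 (edgeR adjusted p 0.594); the authors' deposited table lists 0.77 with a q value of 0.00482. Against the control the myricetin log2 fold change was -1.52 ± 0.49 (edgeR adjusted p 0.0765; 0.0326 without control library 3, 0.0343 without robust estimation and 0.0219 by DESeq2). Kaempferol libraries had 22.2, 20.2 and 36.7 CPM and overlapped the model. Against the control Lpin1 fell by 2.04 ± 0.50 with kaempferol (edgeR adjusted p 0.0228), and the adjusted p was 0.0920, 0.0822 and 0.0804 without control library 2 and without kaempferol libraries 3 and 5. With only the kaempferol and control libraries in the fit it was 0.0846. Across the 5 groups Lpin1 differed (edgeR adjusted p 0.0170), and it passed in each of 15 fits that left out 1 library.

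Lpin2, the other lipin with a high hepatic level, lies on chromosome 17 (71183532 to 71249818, plus strand). Quercetin libraries had 235, 193 and 292 CPM, against 152, 117 and 141 CPM in the model. All quercetin libraries were higher, and the log2 fold change was 0.81 ± 0.34 with an edgeR adjusted p of 0.174. With only the quercetin and model libraries in the fit the edgeR adjusted p was 0.0144, and the authors' deposited table lists 0.80 with a q value of 8.35e-05. Myricetin libraries spread from 108 to 277 CPM, kaempferol libraries from 135 to 171 CPM and control libraries from 96.6 to 215 CPM, and each overlapped the model. The share of Lpin1 in summed lipin TPM (Lpin1, Lpin2 and Lpin3), a measure added after the values had been seen and not tested, was 13.6 ± 3.38% in the model against 36.4 ± 8.70% in the control (SD, n = 3 each). It was 28.6 ± 13.4% with quercetin, 17.7 ± 4.67% with myricetin and 13.8 ± 3.05% with kaempferol. Summed lipin TPM were 81.6, 97.3 and 84.0 in the quercetin libraries, against 40.4, 34.9 and 34.2 in the model libraries and 74.3, 79.8 and 35.0 in the control libraries. They were 36.1, 78.4 and 47.5 with myricetin and 46.1, 33.3 and 52.3 with kaempferol. Thus in TPM, which is not TMM-scaled, 1 control library lay within the model range, and myricetin and kaempferol overlapped both. In TMM-scaled CPM the quercetin libraries overlapped the control for Lpin1 and for Lpin2.

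**Figure D3:**
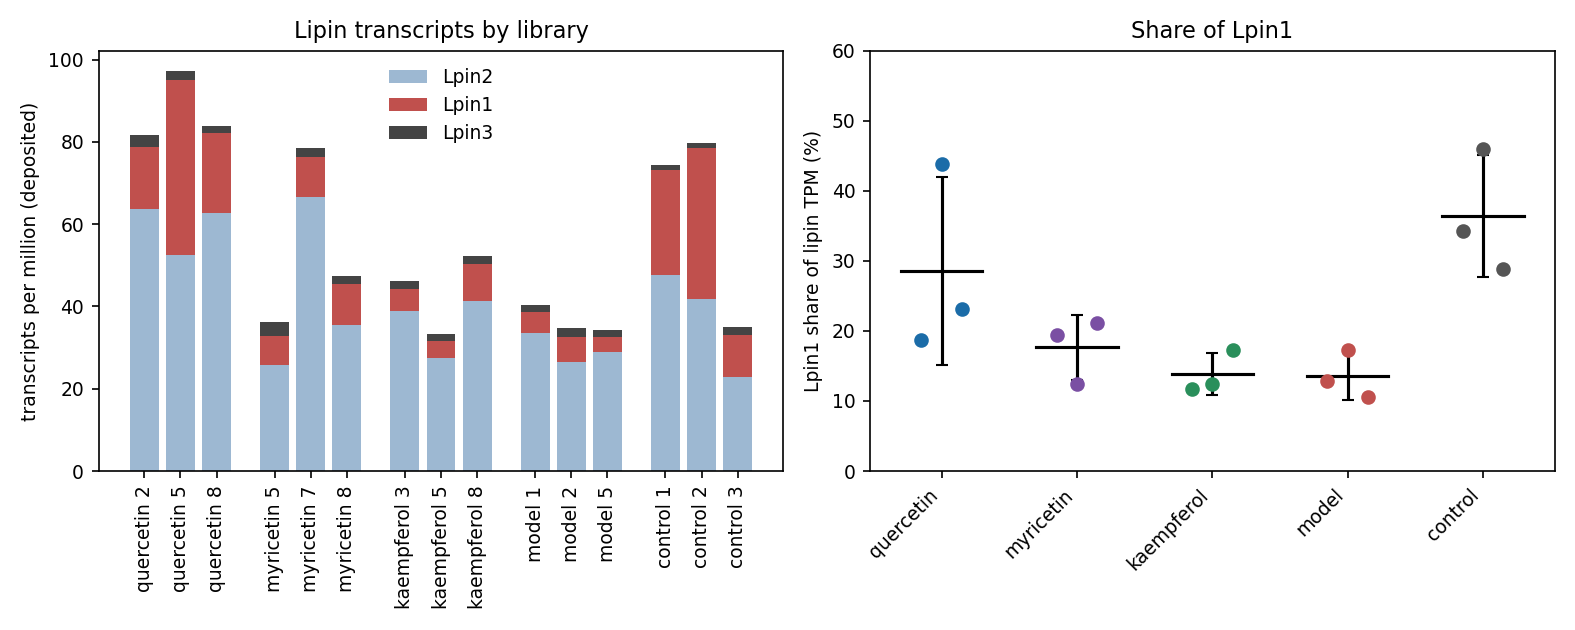
Left, deposited TPM of Lpin2, Lpin1 and Lpin3 stacked for each library; right, Lpin1 as a percent of their sum, with the group mean and SD (n = 3), groups from quercetin at the left to control at the right. Lpin1 makes up 10.6% to 17.3% in model libraries and 28.9% to 45.9% in control libraries.

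Dgat1 and Dgat2 make the last bond by unrelated proteins, and neither passed a pairwise test with TMM scaling. Scaled by library totals only, edgeR passed Dgat1 for quercetin against the model (adjusted p 0.0372) and Dgat2 for quercetin against the model and the control (0.0339 and 0.0340). Dgat1 (chromosome 15, 76502012 to 76512021, minus strand) had 18.1, 16.4 and 14.8 CPM in the model, against 19.4, 21.6 and 20.5 CPM in the control. The groups did not overlap, with a log2 fold change of -0.32 ± 0.13 and an edgeR adjusted p of 0.162. Dgat1 had 16.2 to 21.9 CPM with quercetin, 16.6 to 19.9 CPM with myricetin and 16.6 to 19.7 CPM with kaempferol, each overlapping the model. Dgat2 (chromosome 7, 99153663 to 99182713, minus strand) had 521, 654 and 529 CPM with quercetin, against 494, 440 and 474 CPM in the model and 495, 475 and 430 CPM in the control. Every quercetin library was above every model and control library, with log2 fold changes of 0.28 ± 0.13 against each (edgeR adjusted p 0.216 and 0.169). With kaempferol Dgat2 had 355, 408 and 430 CPM, below every model library, and the log2 fold change was -0.24 ± 0.13 (edgeR adjusted p 0.521). Myricetin libraries had 483, 442 and 611 CPM and overlapped the model and the control. Dgat2 had an edgeR adjusted p of 0.0747 across the 5 groups (0.0472 without myricetin library 8, 0.0190 with library totals only and 0.0205 by DESeq2).

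Mogat1 (chromosome 1, 78511060 to 78606964, plus strand) had 0 to 8 expected counts per library and was not tested. Group sums were 7 counts with quercetin, 9 with myricetin, 12 with kaempferol, 9 in the model and 6 in the control, which does not allow a difference to be seen. Its exons overlap those of BC035947 on the opposite strand.

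Pnpla3 encodes adiponutrin, a lipid droplet protein, and lies on chromosome 15 (84167776 to 84189521, plus strand), where its exons overlap those of Gm49513 on the same strand, so reads of the pair may be mixed. It had 0.286, 0.482 and 0.517 CPM with myricetin and 0.719, 0.382 and 0.624 CPM with kaempferol, against 0.857, 2.15 and 1.19 CPM in the model and 5.70, 1.48 and 2.42 CPM in the control. All myricetin and kaempferol libraries were below all model and control libraries, at 5 to 13 expected counts each. Against the control Pnpla3 fell by 2.88 ± 0.75 with myricetin and by 2.45 ± 0.71 with kaempferol (edgeR adjusted p 0.0298 and 0.0366). Without the filter on low counts the adjusted p for kaempferol was 0.0565. Leaving out 1 library raised the adjusted p above 0.05 in 5 of 6 fits for each flavonoid: for myricetin it was 0.0753 and 0.0565 without control libraries 1 and 3 and 0.105, 0.0759 and 0.0727 without myricetin libraries 5, 7 and 8. For kaempferol it was 0.114 and 0.0661 without control libraries 1 and 3 and 0.0886, 0.116 and 0.0976 without kaempferol libraries 3, 5 and 8. Against the model the log2 fold changes were -1.70 ± 0.79 with myricetin and -1.27 ± 0.76 with kaempferol (edgeR adjusted p 0.424 and 0.576). Quercetin libraries had 6.39, 1.39 and 1.17 CPM, and library 2 alone set their mean: the log2 fold change against the model was 1.09 ± 0.64, and -0.13 without it. Across the 5 groups Pnpla3 differed (edgeR adjusted p 0.0317), and it passed in 7 of 15 fits that left out 1 library; the 8 others, without control library 3, model library 5, or any myricetin or kaempferol library, gave 0.0515 to 0.0673. Without the filter on low counts it was 0.0503.

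**Figure D4:**
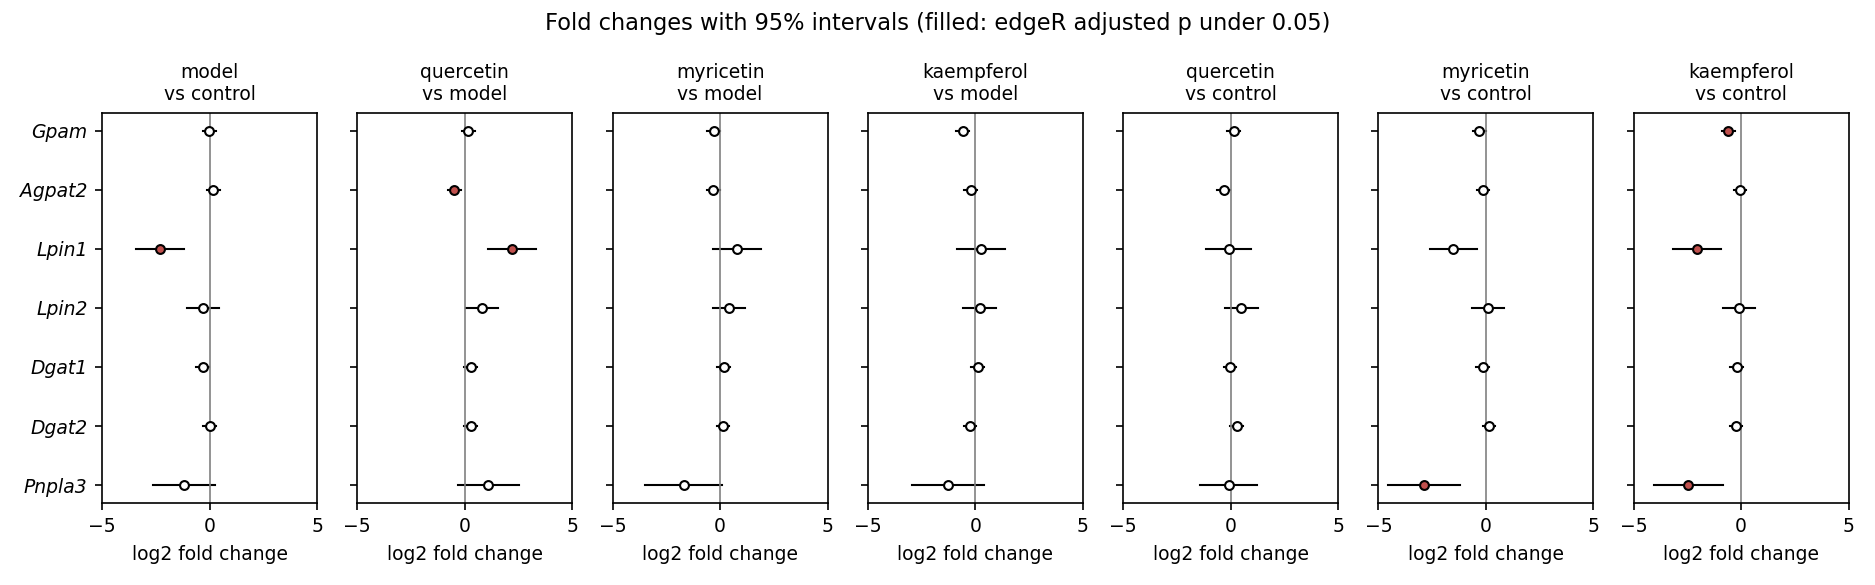
Log2 fold changes (horizontal axes) of the 7 tested members in 7 comparisons with their 95% intervals; filled points have an edgeR adjusted p under 0.05. Lpin1 is filled in 3 panels, Pnpla3 in 2, and Gpam and Agpat2 in 1 each.

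Counted over members, the model against the control had 1 of 7 lower and 0 higher, where 4.46% of all tested genes passed (2.2% higher and 2.27% lower). Quercetin against the model had 1 higher and 1 lower of 7, where 7.82% of all genes passed (4.06% higher and 3.76% lower). Myricetin against the model had 0 of 7 by edgeR, 2 at an unadjusted p under 0.05 and 0 by DESeq2, where 0.395% of all genes passed (0.182% higher and 0.213% lower). Kaempferol against the model had 0 of 7 by edgeR, 1 at an unadjusted p under 0.05 and 1 by DESeq2, where 0.0395% passed (0.0158% higher and 0.0237% lower). The comparisons with the model share its 3 libraries.

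Against the control, quercetin had 0 of 7 by edgeR, 2 at an unadjusted p under 0.05 and 0 by DESeq2, where 11.6% of all genes passed (5.62% higher and 5.99% lower). Myricetin had 1 of 7 lower, where 9.2% passed (4.57% higher and 4.63% lower), and kaempferol had 3 of 7 lower, where 13.4% passed (7.86% higher and 5.55% lower). Any difference among the 5 groups was found for 3 of 7 members, where 16.1% of all genes passed. The median log2 fold change of the 7 was -0.31 in the model against the control, beside -0.0082 over all genes tested. It was 0.28 with quercetin, 0.13 with myricetin and -0.22 with kaempferol against the model, beside 0.0070, 0.0090 and 0.010 over all genes. Against the control it was -0.05 with quercetin, -0.15 with myricetin and -0.23 with kaempferol, beside 0.0081, 0.00055 and 0.00098 over all genes, and with kaempferol all 7 values were negative. The comparisons with the control share its 3 libraries.

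Members whose ranges did not overlap were 2 of 7 in the model against the control, both lower, where 30.0% of all genes did not overlap. Against the model they were 3 higher and 1 lower with quercetin (29.7% of all genes), 1 higher and 2 lower with myricetin (18.8%) and 3 lower with kaempferol (19.0%). Against the control they were 1 higher with quercetin (30.6%), 2 lower with myricetin (29.7%) and 3 lower with kaempferol (33.5%).

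Other genes of the route and its neighbours were counted from lists. For every list, the share of all tested genes that passed was 4.46% in the model against the control. It was 7.82%, 0.395% and 0.0395% with quercetin, myricetin and kaempferol against the model, and 11.6%, 9.2% and 13.4% against the control. No set test was run, and counts of a few genes in a short list may lie near these shares. Of 19 other glycerolipid synthesis genes tested, 1 was lower in the model than in the control: Plpp2, a lipid phosphate phosphatase, at 13.7 ± 1.50 CPM against 20.9 ± 2.96 CPM (log2 fold change -0.61 ± 0.12, edgeR adjusted p 0.0144). With quercetin Plpp2 rose by 0.90 ± 0.12 against the model and Acsl1, which activates long-chain fatty acids, fell by 1.04 ± 0.14 (edgeR adjusted p 0.000444 for each). Acsl1 had 633 ± 36.5 CPM with quercetin against 1297 ± 36.0 CPM in the model. Plpp2 also rose by 0.63 ± 0.12 with myricetin against the model (edgeR adjusted p 0.0366). Agpat1 fell with myricetin against the control (log2 fold change -0.71 ± 0.21, edgeR adjusted p 0.0472). Kaempferol against the model had 0 of the 19 by edgeR, 4 at an unadjusted p under 0.05 and 1 by DESeq2. Against the control, quercetin had 1 higher and 2 lower, myricetin 2 higher and 1 lower, and kaempferol 1 higher and 2 lower. Lclat1, a lysocardiolipin acyltransferase, was higher in all 3 of these, by 0.44 ± 0.12, 0.40 ± 0.12 and 0.44 ± 0.12 (edgeR adjusted p 0.0237, 0.0429 and 0.0207). Its means were 31.6, 30.7 and 31.6 CPM there. The model had a like level of Lclat1, at 29.9 ± 1.11 CPM, against 23.3 ± 2.31 CPM in the control (SD, n = 3 each). Agpat1 had 8.63 ± 1.55 CPM with myricetin, 10.9 ± 1.46 CPM in the model and 14.1 ± 2.37 CPM in the control.

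Of 15 genes of triglyceride hydrolysis, 1 rose and 4 fell with quercetin against the model. Pnpla2, the adipose triglyceride lipase, rose by 0.55 ± 0.14, and Lipa, the lysosomal acid lipase, fell by 0.60 ± 0.10 (edgeR adjusted p 0.0263 and 0.00258). The carboxylesterases Ces3a and Ces1d fell by 0.56 ± 0.13 and 0.71 ± 0.20 (edgeR adjusted p 0.0154 and 0.0382). Of 11 export genes 3 fell with quercetin against the model: Mttp, which loads lipid onto apolipoprotein B, by 0.41 ± 0.11 (edgeR adjusted p 0.0279), and the chaperones Pdia3 and P4hb. Of 18 phospholipid synthesis genes 1 rose and 2 fell there, and Chka, choline kinase, fell by 1.76 ± 0.35 (edgeR adjusted p 0.0117).

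In the model against the control, edgeR passed 0 of the 15 hydrolysis genes (8 at an unadjusted p under 0.05, 2 by DESeq2), 0 of the 18 phospholipid genes (2 and 0) and 0 of the 11 export genes (1 and 1). Kaempferol against the model also had 0 of the 15 (6 at an unadjusted p under 0.05, 1 by DESeq2), 0 of the 18 (2 and 0) and 0 of the 11 (2 and 2). Myricetin against the model had 0 of the 15 (4 and 2), 0 of the 18 (1 and 0) and 1 lower of the 11, P4hb, which fell by 0.49 ± 0.10 (edgeR adjusted p 0.0450). Against the control, the hydrolysis genes had 1 higher and 3 lower with quercetin, and 1 higher and 1 lower with myricetin and with kaempferol. The phospholipid genes had 1 higher and 2 lower with quercetin and 2 lower with each of the others, and 2 export genes were lower with each flavonoid. Lpl, the lipoprotein lipase, rose against the control by 1.78 ± 0.38 with quercetin, 1.38 ± 0.38 with myricetin and 1.85 ± 0.38 with kaempferol (edgeR adjusted p 0.0136, 0.0440 and 0.00999). G0s2, an inhibitor of Pnpla2, fell against the control by 1.98 ± 0.55 with quercetin and by 2.18 ± 0.55 with kaempferol (edgeR adjusted p 0.0410 and 0.0255). Pemt, which methylates phosphatidylethanolamine, fell against the control by 0.40 ± 0.11 with myricetin and by 0.50 ± 0.11 with kaempferol (edgeR adjusted p 0.0324 and 0.00790). Means of the model, on the diet without a flavonoid, lay on the same side of the control for these genes. Lpl had 31.9 ± 7.84 CPM in the model against 13.3 ± 3.81 CPM in the control (SD, n = 3 each). G0s2 had 85.4 ± 35.7 against 198.7 ± 10.0 CPM, and Pemt 222 ± 15.7 against 278 ± 16.5 CPM.

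Regulators and insulin-responsive genes are given beside Lpin1 and Gpam, and their part in the results was not tested. Srebf1, which encodes SREBP-1, had 633, 501 and 499 CPM with quercetin, 371, 287 and 311 with myricetin and 196, 152 and 180 with kaempferol, against 401, 336 and 401 CPM in the model and 128, 155 and 211 CPM in the control. It rose by 1.20 ± 0.17 in the model against the control and fell by 1.11 ± 0.17 with kaempferol against the model (edgeR adjusted p 0.00413 and 0.0224). Against the control Srebf1 also rose by 1.72 ± 0.17 with quercetin and by 0.97 ± 0.17 with myricetin (edgeR adjusted p 2.6e-05 and 0.00346). Of 15 lipogenic regulators 3 rose and 0 fell in the model against the control, with 6 at an unadjusted p under 0.05 and 4 by DESeq2, and Pparg rose by 1.27 ± 0.22 (edgeR adjusted p 0.00858). Against the control 3, 2 and 1 of the 15 regulators rose and 1, 2 and 2 fell with quercetin, myricetin and kaempferol. Of 13 insulin and fasting genes 2 rose with each flavonoid against the control, and 1, 0 and 2 fell with quercetin, myricetin and kaempferol. In the model against the control 3 of the 13 rose and 2 fell. Angptl8 fell by 3.38 ± 0.60 (edgeR adjusted p 0.0159), and Irs2 and G6pc rose by 1.98 ± 0.32 and 1.40 ± 0.29 (edgeR adjusted p 0.00916 and 0.0209).

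Of 19 clock genes tested, 7 rose and 6 fell with quercetin, 3 rose and 2 fell with myricetin, and 0 rose and 1 fell with kaempferol against the model. Against the control 8 rose and 5 fell with quercetin, 3 rose and 3 fell with myricetin, 3 rose and 9 fell with kaempferol, and 1 rose and 0 fell in the model. Dbp had 141, 163 and 126 CPM with quercetin, against 2.20, 2.79 and 3.03 CPM in the model and 2.66, 2.83 and 1.80 CPM in the control, and Arntl had 3.56, 1.33 and 3.08 CPM with quercetin, against 30.9, 27.2 and 27.8 CPM in the model. Arntl had 22.1 to 30.7 CPM in the control. Per1 averaged 36.0 ± 15.7 CPM with quercetin, 12.9 ± 10.2 with myricetin, 4.57 ± 4.82 with kaempferol and 8.47 ± 5.13 in the model, against 45.3 ± 8.27 CPM in the control (SD, n = 3 each). Bhlhe40 averaged 104.1 ± 3.84 CPM with quercetin, 69.3 ± 31.6 with myricetin, 30.5 ± 15.5 with kaempferol and 58.2 ± 9.67 in the model, against 136.3 ± 6.89 CPM in the control. Means of Lpin1, Per1 and Bhlhe40 were thus higher with quercetin and in the control than in the other groups; these genes were chosen after their values had been seen. The part of the clock gene differences in that of Lpin1 was not tested.

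**Figure D5:**
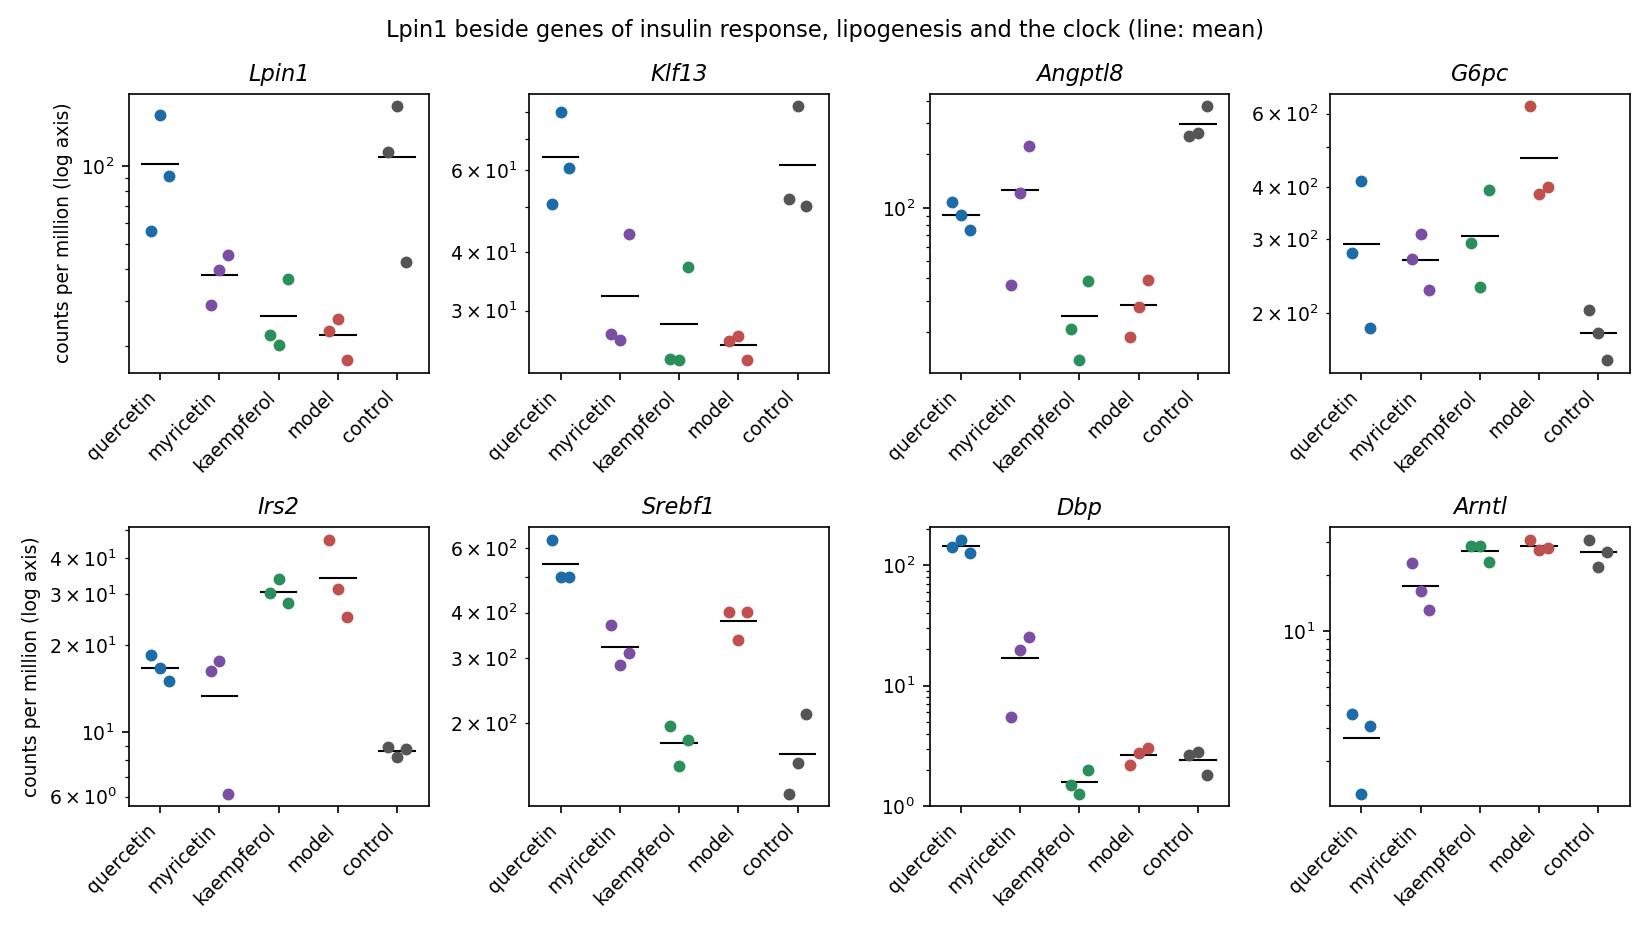
CPM (vertical log axes) of Lpin1 and 7 other genes in each library of quercetin, myricetin, kaempferol, model and control. A line marks the group mean. Klf13 was the gene most like Lpin1 by correlation in these same libraries, so its like pattern is no separate result. Angptl8 has its lowest means in the model and kaempferol groups, where Lpin1 is also low, and Dbp stands far above the other groups with quercetin. With myricetin Lpin1 lies at 28.9 to 45.1 CPM, while Angptl8 spreads from 36.8 to 222 CPM.

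Markers of some other liver cells also moved. Of 7 stellate markers 0 passed by edgeR in each of 7 comparisons, with 0 at an unadjusted p under 0.05 and 0 by DESeq2. Against the control 6 of 8 macrophage markers rose with quercetin, 6 with myricetin, 8 with kaempferol and 4 in the model. They summed to 270 to 298 CPM with quercetin, 271 to 381 with myricetin, 342 to 845 with kaempferol and 206 to 292 in the model, against 90.9 to 152 CPM in the control. Of 8 endothelial markers 2, 6, 7 and 3 rose in these groups against the control. They summed to 110 to 159 CPM with quercetin, 189 to 229 with myricetin, 187 to 240 with kaempferol and 143 to 191 in the model, against 82.6 to 131 CPM in the control. Against the model, 0 of the 8 macrophage markers passed by edgeR with each flavonoid. With quercetin, myricetin and kaempferol, 0, 1 and 8 had an unadjusted p under 0.05, and 0, 0 and 1 passed by DESeq2. Of the 8 endothelial markers 1 fell with quercetin against the model, and 0 passed with myricetin or kaempferol. Of 4 adipocyte markers tested, Car3 and Cfd rose in the model against the control. Car3, also a gene of the liver, averaged 4214 ± 590 CPM in the model against 1451 ± 366 CPM in the control, and Cfd, adipsin, had 2.03 to 23.6 CPM against 0.0621 to 0.0644 CPM (edgeR adjusted p 0.00584 and 0.0287). Against the control 1 of the 4 rose with quercetin, 1 with myricetin and 2 with kaempferol. The 8 listed adipocyte markers in the table summed to 2287 to 3015 CPM with quercetin, 2130 to 3374 with myricetin, 2017 to 3707 with kaempferol and 3718 to 4900 in the model, against 1235 to 1891 CPM in the control. Without Car3, a split made after the values had been seen, the sums were 19.1 to 42.9 CPM in the model against 17.6 to 22.5 CPM in the control. Their part in the member differences was not tested.

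Genes among the 3 most like each member were taken by Pearson's r of log2(CPM + 0.5) over 15 libraries among 9016 genes, as a description with no p, since the libraries share groups and depth. Gpam was most like Stard4 (r 0.920), and Fasn (0.875) was also among its 3, and within groups these r were 0.706 and 0.515. Lpin1 was most like Klf13 (0.943), Hs6st1 (0.919) and Gtpbp6 (0.911). Among the 3 for Pnpla3 were Fads6 (0.843) and Acly (0.829). Agpat2 was most like Coq8a (0.922), with Bhmt (0.906) also among its 3, and Dgat2 was most like Nme3 (0.888), Pkig (0.878) and Ppil2 (0.876). Lpin2 was most like Ensa (0.820), Tbc1d20 (0.801) and Mepce (0.797), and Dgat1 was most like Eif4e2 (0.891), Smim11 (0.870) and Fam104a (0.857). Among members, Lpin1 and Dgat1 had an r of 0.68 over all libraries and 0.34 within groups, and Gpam and Pnpla3 had 0.64 and 0.17.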

How the data were processed

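Liver RNA was sequenced in 15 libraries, and the authors deposited 1 table for the series. Per the file headers the authors deposited an expected count per gene and library, not scaled between libraries; 5.37% of these values were not whole, and all were rounded. TPM and FPKM deposited by the authors served only to order levels and for lipin sums and shares. The authors' deposited log2 fold changes and q-values are quoted as theirs. The 15 group average columns were not used. The submitters' processing notes name HISAT2 2.1.0, Bowtie2 2.3.4.3, RSEM 1.3.1, DESeq2 1.4.5 and GRCm38.p6, with no role given; strand was not stated.

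Counts were filtered with filterByExpr, scaled by TMM, and edgeR 4.0.16 (R 4.3.3) fitted its quasi-likelihood model with robust estimation, 1 mean per group over 15 libraries and 10 residual degrees of freedom, with 2-sided tests, Benjamini-Hochberg adjustment over 12658 genes and a threshold of 0.05. The SE is the log2 fold change over the root of F, so intervals are approximate; the common biological coefficient of variation was 0.155. Totals were 15.9 to 17.6 M counts. DESeq2 1.42.0, other scalings, filters and left-out libraries were the alternatives. The procedure was tested on simulated data.

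The members and lists were chosen with earlier results of these data known. All 8 members are named; other lists give up to 3 passing genes per direction, by smallest p, and each member the 3 genes most like it (mean of at least 5 CPM). Some genes that this rule takes are not reported here. Lipin shares and family levels were added after values were seen.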

Additional observations from a re-analysis of the deposited data

How the results depend on the processing

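Library numbers did not pair the libraries: none of 14 same-number pairs correlated over 0.1 (median -0.0516), so the fit with the number as a replicate block is given only here. Under the replicate block 0 members passed for the model, quercetin against the model, myricetin and kaempferol against the control, and the 5-group test. Genes passing were then 43 for the model, 236, 5 and 1 for quercetin, myricetin and kaempferol against the model, 201, 2 and 298 for these against the control, and 217 for the 5 groups. Log2 fold changes that changed sign under the replicate block were Dgat2 (-0.0672) and Gpam (0.0343) for the model, Lpin2 with kaempferol (0.0654) and myricetin (-0.30) against the control and with myricetin against the model (-0.00482), and Pnpla3 with quercetin against the control (0.39).

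DESeq2 passed 1000 genes for the model, 219 and 197 for myricetin and kaempferol against the model, and 5 members in the 5-group test, 1 for kaempferol against the model and 2 for myricetin against the control. Library totals alone gave 1731, 77 and 10 genes for quercetin, myricetin and kaempferol against the model and 1 member for quercetin against the control, and turned Dgat1 (0.0862), Lpin1 (0.0655) and Pnpla3 (0.0693) for quercetin against the control and Dgat2 for the model (-0.00286). With only the groups compared, genes passing were 21 and 125 for kaempferol and myricetin against the model and 1075 and 768 for kaempferol and quercetin against the control, and 0 members passed for the model. Upper quartile scaling gave 8 genes for kaempferol against the model and turned Gpam for the model (0.0103). No filter gave 18 genes for kaempferol against the model. A mean of at least 5 CPM left 0 members for myricetin against the control, since Pnpla3 is below it, and without robust estimation 2 passed there.

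Leaving out 1 library gave 82 to 919 genes for the model, 429 to 788, 13 to 65 and 0 to 39 for quercetin, myricetin and kaempferol against the model, 669 to 1560, 470 to 1354 and 766 to 1941 for these against the control, and 1079 to 2082 for the 5 groups. Members passing were 0 to 1 for the model, 0 to 2 for quercetin against the model, 0 to 1 for myricetin against the control and 1 to 2 for kaempferol against the control. The lowest and highest log2 fold changes of those that changed sign were -0.189 and 0.0819 (Gpam) and -0.0492 and 0.0529 (Dgat2) for the model; -0.13 and 1.55 (Pnpla3) for quercetin against the model; -0.122 and 0.0814 (Dgat1), -0.56 and 0.38 (Lpin1) and -1.32 and 0.61 (Pnpla3) for quercetin against the control; -0.00594 and 0.687 (Lpin2) and -0.0213 and 0.223 (Dgat2) for myricetin against the model; -0.31 and 0.38 (Lpin2) and -0.0135 and 0.231 (Dgat2) for myricetin against the control; -0.0593 and 0.41 (Lpin1) for kaempferol against the model; and -0.142 and 0.0448 (Agpat2) and -0.393 and 0.0987 (Lpin2) for kaempferol against the control. Causes of these shifts were not tested. Over all settings, 794 member values kept direction and side of the threshold, 49 lost the call, 12 gained it and 33 changed sign. Only results that passed with TMM scaling on all 15 libraries could lose a call, so the 794 include values that never passed. The losses were 23 for Pnpla3, 17 for Lpin1, 6 for Agpat2 and 3 for Gpam. Expected counts of Pnpla3 and Mogat1 are low, which limits what can be seen of them.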
